A study of Mus musculus with 4 samples.

Results

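The RNAs described here are the products of the 4 genes that held over 2% of the raw counts in at least 1 library, of 41324 genes in all. They are RP23-81C12.1 and RP23-81C12.3, both named after a genomic clone, and the mitochondrial rRNA genes mt-Rnr1 and mt-Rnr2. These members were chosen by these counts, so their levels and changes are given as a description, with no test. RAW264.7, a mouse macrophage cell line, was sequenced untreated and after 2, 4 and 6 h in 10 µg/ml actinomycin D, to follow the loss of RNA once transcription is blocked. Each time had 1 library, so a difference between times cannot be told apart from a difference between libraries, and nothing in the labels describes separate cultures. The material is labelled as cytoplasmic RNA, and rRNA was depleted before a strand-keeping library kit was used. Clone names of this style are carried by 13111 genes of the table. The GENCODE annotation used here has 0 names of that style, so no position, length, strand or sequence is given for RP23-81C12.1 and RP23-81C12.3, and whether they are rRNA-like was not checked against sequence. They are called the clone genes below. The annotation types 354 gene names as rRNA, and 353 of them are in the table. Only 12 of the 353 had any count, and their counts summed to 6, 6, 12 and 1 at 0, 2, 4 and 6 h. Nearly no counts were therefore assigned to genes that the annotation types as rRNA. How many reads came from cytosolic rRNA cannot be read from these sums, since the handling of multiply matching reads is not given.

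Ribosomal RNA is the structural and catalytic core of the ribosome, and it is the most abundant RNA of most cells. Cytosolic rRNA is made in the nucleolus by RNA polymerase I, whose activity is very sensitive to the DNA-binding antibiotic actinomycin D. Mitochondria make their own rRNAs from their own DNA: mt-Rnr1 encodes the rRNA of the small mitochondrial ribosomal subunit and mt-Rnr2 that of the large subunit, and both are cut from a long transcript of the heavy-strand promoter by removal of the tRNAs that lie between them.

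Total counts were 35669434, 38260540, 70289647 and 12762100 at 0, 2, 4 and 6 h. Of 10 macrophage marker genes in the table, 9 were at a CPM (counts scaled to the library total) of 1 or more in the untreated library, Csf1r, Adgre1, Itgam and Cd68 among them. Of 12 markers of other cell types 0 reached that level, 8 were at 0 counts in all 4 libraries (Epcam, Krt8, Col1a2 and Alb among them), and their summed level lay between 0.617 and 0.810 CPM.

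The annotation of the mm10 build places both mitochondrial rRNA genes on the plus strand of the mitochondrial genome. mt-Rnr1 (ENSMUSG00000064337.1) runs from 70 to 1024 over 955 bases, and mt-Rnr2 (ENSMUSG00000064339.1) from 1094 to 2675 over 1582 bases. Neither overlaps another annotated gene. The tRNA genes for phenylalanine (mt-Tf, 1 to 68), valine (mt-Tv, 1025 to 1093) and leucine (mt-Tl1, 2676 to 2750) flank them. The sequences at these borders are shown because the rRNAs whose share was higher after treatment and the mRNA mt-Nd1, which fell, lie next to each other here. They are written 5′ to 3′ from the GENCODE transcripts, in lower case for rRNA and mRNA and in capitals for the tRNA that is cut out.
mt-Tf, chrM:1-68: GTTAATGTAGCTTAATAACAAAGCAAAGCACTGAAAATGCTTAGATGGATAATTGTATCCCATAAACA
mt-Rnr1 start, chrM:70-169: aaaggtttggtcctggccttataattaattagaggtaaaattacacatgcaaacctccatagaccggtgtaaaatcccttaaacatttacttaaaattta
mt-Rnr1 end, mt-Tv and mt-Rnr2 start, chrM:925-1193: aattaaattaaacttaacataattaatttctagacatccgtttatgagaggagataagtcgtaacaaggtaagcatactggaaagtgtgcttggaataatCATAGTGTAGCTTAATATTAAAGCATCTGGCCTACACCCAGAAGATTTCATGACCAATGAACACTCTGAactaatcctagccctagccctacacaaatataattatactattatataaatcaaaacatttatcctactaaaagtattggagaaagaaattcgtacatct
mt-Rnr2 end, mt-Tl1 and mt-Nd1 start, chrM:2576-2850: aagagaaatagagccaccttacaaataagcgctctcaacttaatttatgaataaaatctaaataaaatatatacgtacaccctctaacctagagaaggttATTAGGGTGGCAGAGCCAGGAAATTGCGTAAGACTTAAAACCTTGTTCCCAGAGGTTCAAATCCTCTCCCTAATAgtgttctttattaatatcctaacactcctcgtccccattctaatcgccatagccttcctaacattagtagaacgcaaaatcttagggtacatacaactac

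Both rRNA sequences were poor in G and C (35.8% in mt-Rnr1 and 35.4% in mt-Rnr2) and rich in A (37.8% and 38.2%). The longest run of bases that they share is 11, from position 299 of mt-Rnr1 and position 736 of mt-Rnr2, each counted from 1 at the 5′ end. It is shown in capitals with 40 bases on each side, since a read longer than this run cannot match both genes exactly.
mt-Rnr1, chrM:328-418: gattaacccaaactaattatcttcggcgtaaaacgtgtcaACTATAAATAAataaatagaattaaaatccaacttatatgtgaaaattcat
mt-Rnr2, chrM:1789-1879: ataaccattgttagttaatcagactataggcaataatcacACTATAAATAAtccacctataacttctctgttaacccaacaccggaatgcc

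Copies elsewhere matter for the mitochondrial counts, because reads with several matches are often dropped, and how the authors treated them is among the points not given in the sources used here. Of the 906 words of 50 bases in mt-Rnr1, 0 occurred on either strand in any of 141730 GENCODE transcripts of genes outside the mitochondrial genome. Of the 1533 words of mt-Rnr2, 16 did (1.04%), all in 1 gene, Gm20594, which is not a row of the table. Shared words were far more frequent in part of the mitochondrial mRNA genes. mt-Co2, a subunit of cytochrome c oxidase, shared 635 of 635 words with these transcripts, and mt-Atp6, mt-Co3, mt-Nd3 and mt-Nd4l shared 99.5%, 99.9%, 98.0% and 98.8%. These 5 genes, together with mt-Atp8 (0% shared, 204 bases long), are listed at 0 in all 4 libraries. Words shared between mitochondrial genes were not counted, and mt-Atp8 (7766 to 7969) overlaps mt-Atp6, which starts at 7927. The 7 mitochondrial mRNA genes with counts shared between 0% and 62.2%. All 22 mitochondrial tRNA genes, 59 to 75 bases long, are also listed at 0, the 3 that flank the rRNA genes included. The part of shared sequence, of overlap between genes and of gene length in these zeros was not tested, and copies in the genome outside transcripts were not searched.

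RP23-81C12.1 was the most counted gene of the untreated library and stood near 1% of its untreated level by 2 h. It had 8257300, 147723, 183195 and 28589 counts at 0, 2, 4 and 6 h. As a share of each library this was 23.1% (exact binomial 95% interval 23.14 to 23.16%), 0.386% (0.384 to 0.388%), 0.261% (0.259 to 0.262%) and 0.224% (0.221 to 0.227%). The untreated library stood alone, and the 3 treated libraries lay close together. Among all genes its rank by counts went from 1 to 9, 18 and 20. These intervals, like all others here, cover counting error only.

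RP23-81C12.3 had a similar first step and a different last one. It had 1264422, 16520, 18704 and 12555 counts, or 3.54% (3.539 to 3.551%), 0.0432% (0.0425 to 0.0438%), 0.0266% (0.0262 to 0.0270%) and 0.0984% (0.0967 to 0.100%) of the 4 libraries. It was the gene with the 2nd highest count before treatment, lay at ranks 342 and 711 at 2 and 4 h, and stood at rank 81 at 6 h. Its lowest share was thus at 4 h and not at the end of the course.

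The mitochondrial rRNAs took a growing share of the libraries. mt-Rnr2 had 513792, 1371804, 3500097 and 1512699 counts, which was 1.44% (1.437 to 1.444%), 3.59% (3.580 to 3.591%), 4.98% (4.974 to 4.985%) and 11.9% (11.84 to 11.87%) of the libraries. It ranked 3rd of all genes without treatment and 1st at 2, 4 and 6 h. mt-Rnr1 had 125866, 346657, 759400 and 336035 counts, or 0.353% (0.351 to 0.355%), 0.906% (0.903 to 0.909%), 1.08% (1.078 to 1.083%) and 2.63% (2.624 to 2.642%). Its rank was 9, 5, 3 and 2. For both genes every later library had a larger share than the one before, and the widest gap in percentage points lay between 4 and 6 h.

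**Figure D1:**
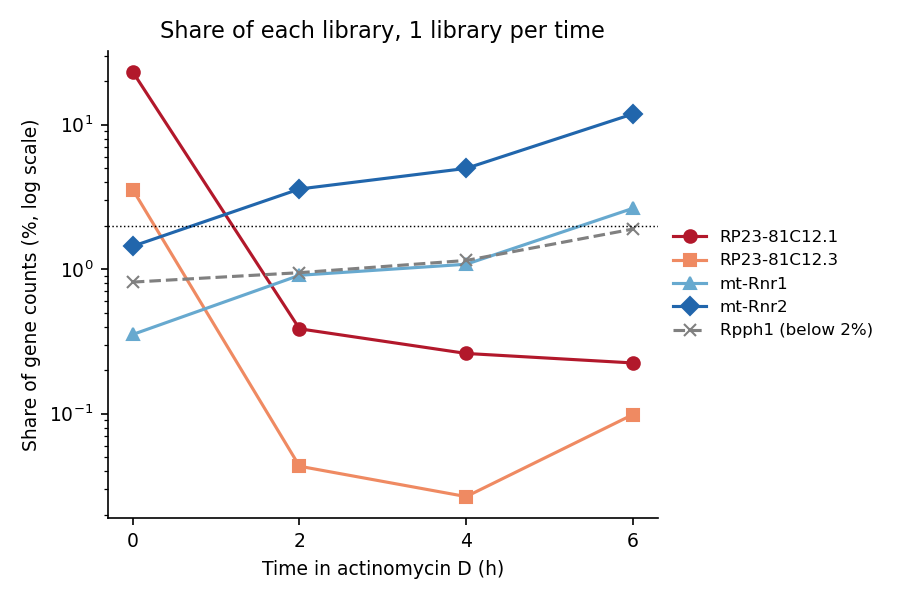
Share of all gene counts (percent, log axis) of the 4 members and of Rpph1 against hours in actinomycin D, 1 library per time, with the 2% threshold as a dotted line. The clone genes drop from 23.1% and 3.54% to under 0.4% by 2 h, and mt-Rnr2 climbs from 1.44% to 11.9%.

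Of the members, mt-Rnr1 lay nearest to the 2% threshold with its 2.63% at 6 h. The gene just outside was Rpph1, the RNA of nuclear RNase P, with 0.813%, 0.944%, 1.15% and 1.89%. The next were Actb, a cytoskeletal actin, at no more than 1.02% and Pkm, a glycolytic kinase, at no more than 0.922%, both at 4 h. Of the other genes with clone names, RP23-92G13.4 had the highest share in any library, 0.118% at 4 h.

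The members together held 28.5% of the counts in the untreated library (28.47 to 28.50%) and 4.92%, 6.35% and 14.8% after 2, 4 and 6 h of treatment. The makeup of that share turned over. The clone genes accounted for 26.7% of the counts before treatment and the mitochondrial rRNAs for 1.79%, whereas at 6 h the clone genes held 0.322% and the mitochondrial rRNAs 14.5%. The ratio of the summed clone genes to the summed mitochondrial rRNAs was 14.9 before treatment, and mt-Rnr2 alone outnumbered RP23-81C12.1 by 9.29, 19.1 and 52.9 to 1 at 2, 4 and 6 h. These ratios are taken within a library and do not depend on how libraries are scaled.

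Because the members filled unequal parts of the libraries, they set the apparent level of every other gene in shares of the total. Leaving them out raises the share of all other genes by 0.48 log2 in the untreated library and by 0.07, 0.09 and 0.23 log2 after 2, 4 and 6 h. The other genes summed to 25508054, 36377836, 65828251 and 10872222 counts. The authors' deposited normalized values come from dividing each library by 1 whole number, found here to be 1300, 2250, 4476 and 748. Total counts per unit of this divisor were 27438, 17005, 15704 and 17062, and counts without the members 19622, 16168, 14707 and 14535. Without the members the 4 libraries thus lay closer together on this measure.

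To compare times, counts were scaled with TMM, which sets the typical gene to no change. RP23-81C12.1 then had 1.26% of its untreated level at 2 h (counting interval 1.25 to 1.26%), and 0.889% and 0.862% at the later times. The step from 0 to 2 h was −6.31 log2, or 79.5-fold down, and the later steps were −0.50 and −0.05. RP23-81C12.3 stood at 0.919% (0.905 to 0.933%), 0.593% and 2.47%, with steps of −6.77, −0.63 and 2.06 log2. The last step left its level 4.17-fold higher, while that of RP23-81C12.1 was nearly level.

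On the TMM scale mt-Rnr1 was at 194%, 242% and 664% of untreated, and mt-Rnr2 at 188%, 273% and 733%. Their steps were 0.95, 0.32 and 1.46 log2 for mt-Rnr1 and 0.91, 0.54 and 1.42 for mt-Rnr2. The middle step was the smallest in both genes. The last step was the largest on the TMM scale, whereas with total counts the first was (1.36 against 1.29 log2 for mt-Rnr1 and 1.32 against 1.25 for mt-Rnr2). These levels are relative to the typical gene, and absolute amounts of RNA were not measured. Fewer cells and less RNA per cell cannot be told apart in these bulk samples. Depletion of rRNA came before the library step. How far it removed RNA of the members, and whether it did so equally in each library, was not measured. The part of depletion in the changes of the clone genes and of the mitochondrial rRNAs was therefore not tested.

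**Figure D2:**
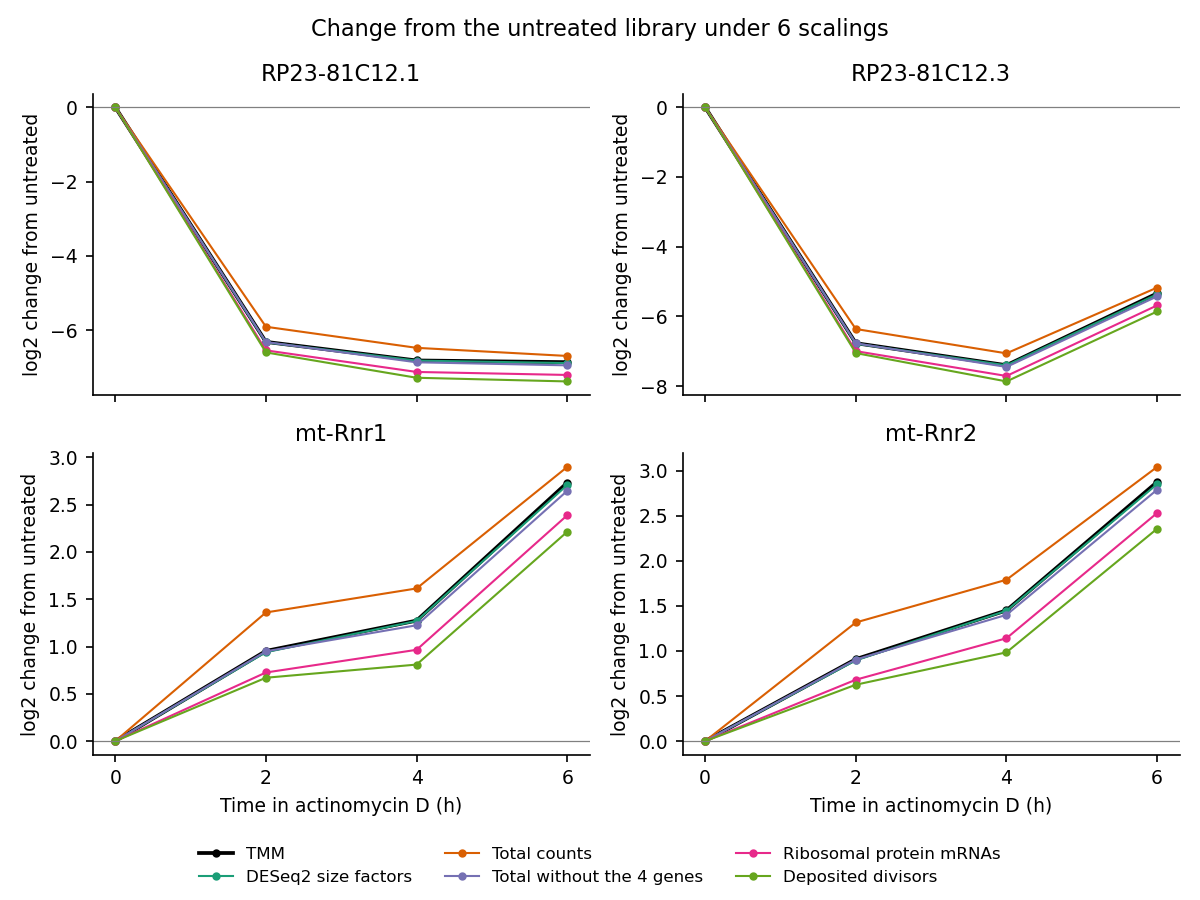
Change from the untreated library (log2) of each member against hours in actinomycin D, with 1 line for each of 6 ways of scaling the libraries. The distance between the lines varies with time, the clone genes stay below −5 at every treated time and both mitochondrial rRNAs stay above 0.

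The direction of these changes was the same under all 6 scalings, which rescale the same counts. The scalings differ from each other by less than each of these changes on the TMM scale, so no direction could have turned. At 6 h RP23-81C12.1 lay between −7.38 and −6.69 log2, RP23-81C12.3 between −5.86 and −5.17, mt-Rnr1 between 2.21 and 2.90 and mt-Rnr2 between 2.36 and 3.04. In each case the deposited divisors gave the lowest value and total counts the highest. The step of RP23-81C12.3 from 4 to 6 h lay between 1.89 and 2.06 log2.

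Set among all 10837 genes with a mean of at least 1 CPM, the clone genes had the 2 lowest changes at 2 h and at 4 h. At 2 h the median gene changed by 0.01 log2 with the 5th and 95th percentiles at −1.36 and 0.42. At 6 h 2 genes lay below RP23-81C12.1 and 15 below RP23-81C12.3, and these percentiles were −1.87 and 0.70. Above mt-Rnr2 lay 139, 79 and 26 genes at 2, 4 and 6 h, and above mt-Rnr1 128, 100 and 32. The mitochondrial rRNAs lay in the upper tail from 2 h on, with fewer genes above them at each later time. The clone genes passed the 2% threshold only in the untreated library, mt-Rnr1 only at 6 h and mt-Rnr2 only in treated libraries. These places among all genes therefore follow in part from how the members were chosen.

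**Figure D3:**
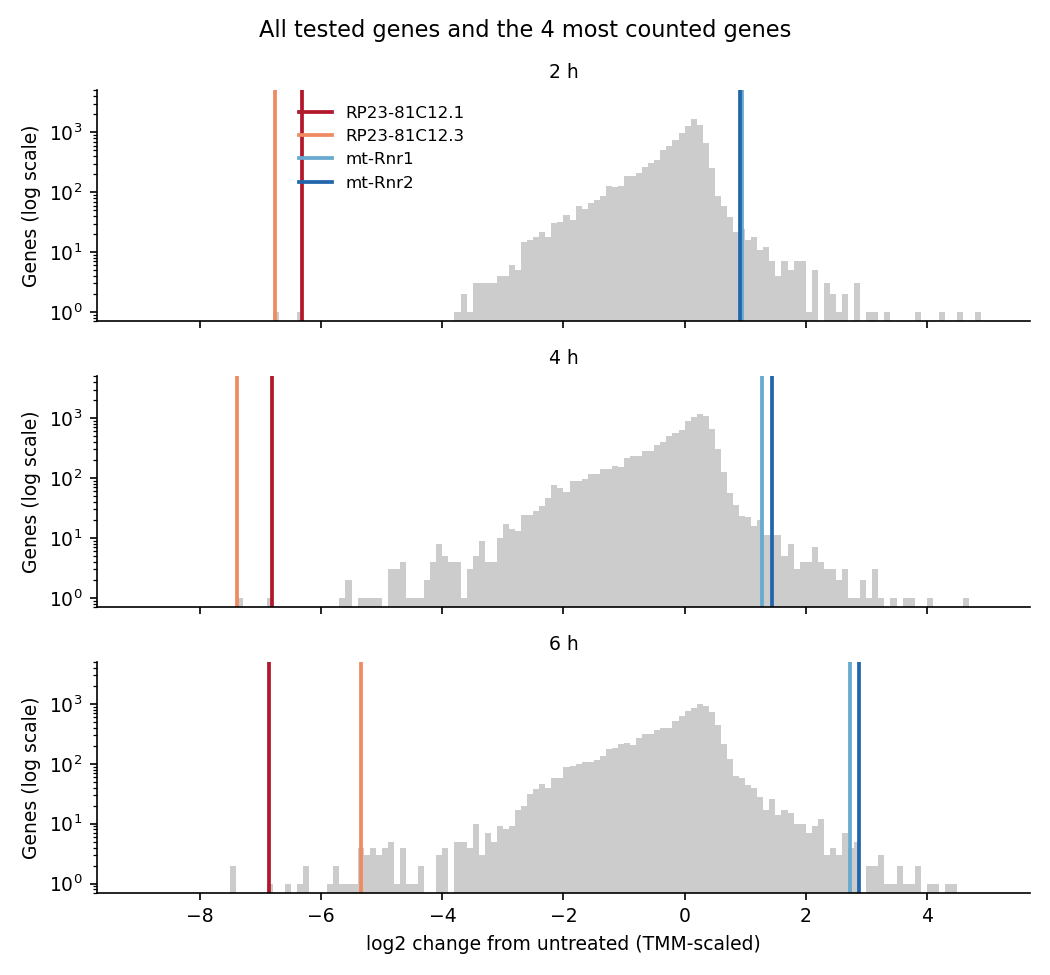
Number of tested genes (log axis) by log2 change from the untreated library on the TMM scale at 2, 4 and 6 h, with a coloured line at each member. The clone genes lie apart from the bulk at 2 and 4 h, and both mitochondrial rRNAs move to the right at each time.

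A large rise from 4 to 6 h was rare, with the 5th and 95th percentiles of all 10837 genes at −0.39 and 0.46 log2. It was seen in RP23-81C12.3 and both mitochondrial rRNAs but not in RP23-81C12.1 (−0.05), and was not particular to the members. Only 1 gene, the small nucleolar RNA Snora70, had a larger step than RP23-81C12.3, and it rested on 28 and 34 counts. Besides the members, 21 genes had a larger step than mt-Rnr1, and the annotation types 18 of them as small nucleolar RNAs (snoRNAs), which guide chemical modification of rRNA, and 1 as a small nuclear RNA. Of the 60 snoRNA genes tested 59 were higher at 6 than at 4 h, with a median step of 1.15 log2, against 5350 of all 10837 genes. The 2 others were Lars2, which encodes the mitochondrial leucyl-tRNA synthetase (2183, 2291, 4161 and 1928 counts, a step of 1.52), and RP23-89M16.5 with 71 and 33 counts at 4 and 6 h. Lars2 and Snora70 were chosen after their values were seen. The 6 h library had the fewest counts, and the part of that library or of its small RNAs in the last step was not tested.

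The nearest courses were looked for among 7930 genes with a mean of at least 10 CPM, by the Euclidean distance of their log2 changes at 2, 4 and 6 h. The nearest gene to each mitochondrial rRNA was the other one, at a distance of 0.23 log2. Next came Gm22009 (0.65 from mt-Rnr1 and 0.75 from mt-Rnr2; 302, 1005, 2191 and 559 counts) and Snora23 (1.05 and 0.93; 187, 273, 1594 and 534 counts). The clone genes were also nearest to each other, at 1.69 log2, and next to them came histone genes, Hist2h4 at 3.07 and 3.78, Hist1h3h at 3.14 from RP23-81C12.1 and Hist1h3g at 3.99 from RP23-81C12.3. Hist2h4 had 22216, 2729, 1094 and 118 counts, so its level was lower after each step, whereas most of the difference of the clone genes lay in the first.

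Within a library, the 2 mitochondrial rRNAs kept a nearly steady proportion. The ratio of mt-Rnr2 to mt-Rnr1 counts was 4.08 (exact binomial interval 4.06 to 4.11), 3.96 (3.94 to 3.97), 4.61 (4.60 to 4.62) and 4.50 (4.48 to 4.52) at 0, 2, 4 and 6 h. Per base of gene length it was 2.46, 2.39, 2.78 and 2.72. The intervals of these ratios do not overlap, but with 1 library per time the spread between libraries is unknown.

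The clone genes kept no such proportion. The ratio of RP23-81C12.1 to RP23-81C12.3 was 6.53 (6.52 to 6.54) before treatment, then 8.94 (8.80 to 9.09), 9.79 (9.65 to 9.94) and, in the last library, 2.28 (2.23 to 2.33). The 6 h library stood apart from the 3 others.

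**Figure D4:**
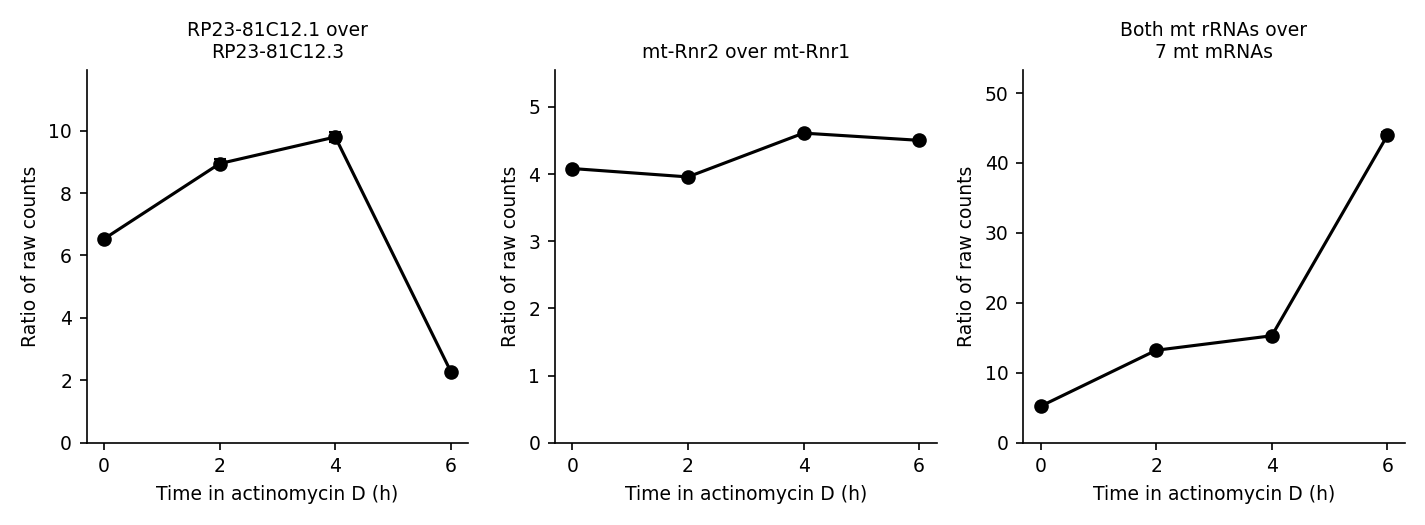
Ratios of raw counts within each library against hours in actinomycin D, with exact 95% counting intervals that are mostly smaller than the points. The ratio of the mitochondrial rRNAs stays between 3.96 and 4.61, that of the clone genes drops from 9.79 to 2.28 between 4 and 6 h, and that of mitochondrial rRNA to mRNA rises to 44.0.

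Taken as a sum, the mitochondrial mRNAs with counts, most of which come from the same long transcripts as the rRNAs, did not share their course. The ratio of the 2 rRNAs to the 7 mRNAs with counts was 5.22 (5.19 to 5.26), 13.2 (13.2 to 13.3), 15.3 (15.2 to 15.4) and 44.0 (43.5 to 44.4). The 7 mRNAs together held 0.343%, 0.339%, 0.396% and 0.330% of the counts, so the ratio moved with the share of the rRNAs. This sum joins unlike courses, which are given gene by gene below. Of the summed mRNA counts, mt-Co1 held 50013 of 122431 at 0 h and 31626 of 42062 at 6 h. Per length, mt-Rnr2 had 9105, 22664, 31476 and 74925 CPM per kilobase, and mt-Rnr1 3695, 9487, 11313 and 27571. Among the 7 mRNAs with counts the highest by this measure was mt-Co1, a cytochrome c oxidase subunit, with 908, 1335, 1920 and 1604. mt-Nd1, which encodes a subunit of complex I and begins right after mt-Tl1, had 736, 528, 250 and 180.

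Changes of genes outside the members were tested as a slope in log2 per h across the 4 libraries with edgeR, with p-values adjusted over all 10837 genes by Benjamini-Hochberg. Of all genes tested 16.8% fell and 8.03% rose at an adjusted p under 0.05, and 5083 of the 10837 had an unadjusted p under 0.05. With the 4 h library left out, 342 genes fell and 22 rose of 10847 tested. mt-Nd1 (25122, 19330, 16846 and 2203 counts) fell to 54.1%, 26.9% and 21.8% of untreated, with a slope of −0.38 ± 0.04 log2 per h (SE, edgeR adjusted p = 0.0158). mt-Cytb, the cytochrome b of complex III (21208, 15382, 22843 and 2778 counts), fell to 51.0%, 43.2% and 32.6% (slope −0.26 ± 0.04, edgeR adjusted p = 0.0227), and missed the test without the 4 h library (adjusted p = 0.0550). These were 2 falls and 0 rises among the 7 mRNAs tested. Their median slope was −0.17 against 0.0014 for all genes, but it turned to 0.09 with the untreated library left out and was −0.30 with the 6 h library left out. With DESeq2, another count test, 2 fell and 2 rose, beside 2162 falls and 1529 rises among all 10837 genes.

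mt-Co1 (50013, 78941, 208536 and 31626 counts) stood at 111%, 167% and 157% of untreated (slope 0.13, edgeR adjusted p = 0.0607) and passed as a rise with the untreated library left out (adjusted p = 0.0107) or with the 6 h library left out (0.0320). Of its 1496 words of 50 bases 51.1% were shared with transcripts of genes outside the mitochondrial genome. mt-Nd6, the complex I subunit that lies on the other strand, stood at 93.6%, 193% and 169% (adjusted p = 0.0960). mt-Nd2, mt-Nd4 and mt-Nd5, also of complex I, stood at 29.8%, 39.1% and 47.6% at 2 h and at 39.1%, 51.3% and 47.8% at 6 h (edgeR adjusted p = 0.162, 0.213 and 0.103). Without the untreated library 2 mRNAs fell and 4 rose, mt-Nd2 and mt-Nd4 among the rises (slopes 0.09 and 0.10). Among all 10838 genes then tested, 1620 fell and 717 rose. Lacking the 2 h library, there were 5 falls and 0 rises of mitochondrial mRNAs, beside 1959 falls and 434 rises among all 10787 genes.

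**Figure D5:**
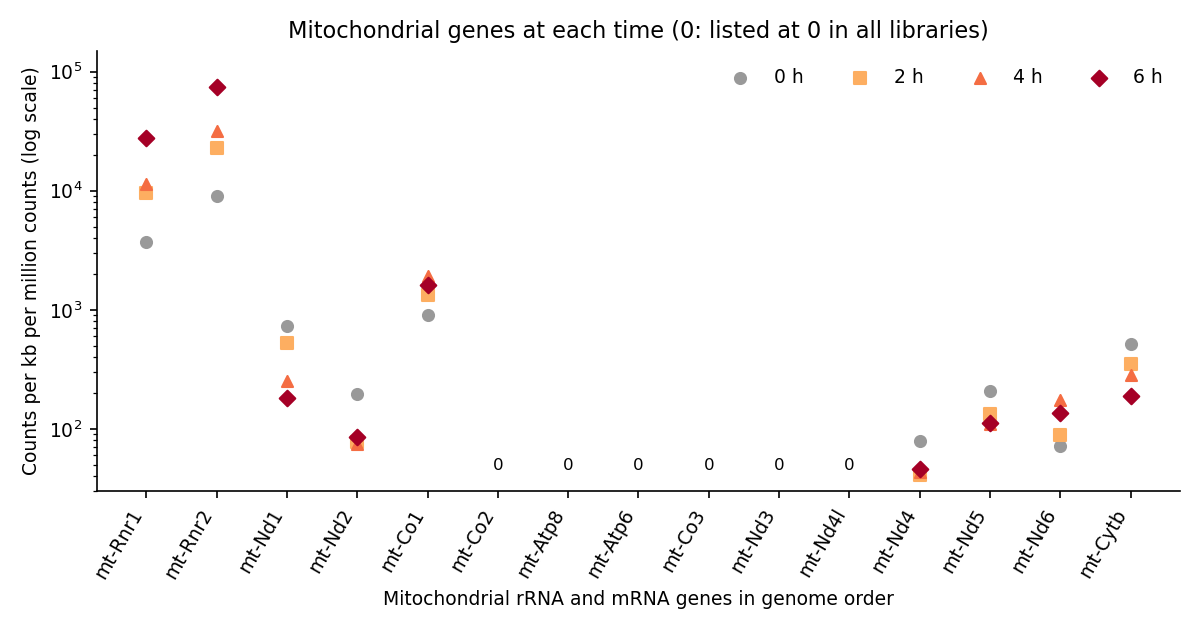
CPM per kilobase (log axis) of the mitochondrial rRNA and mRNA genes in genome order at 0, 2, 4 and 6 h. Both rRNA genes lie above every mRNA with counts at every time and climb, mt-Nd1 beside them declines from 736 to 180, and 6 mRNA genes are listed at 0.

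The proteins that make, process and remove mitochondrial RNA are encoded in the nucleus. Of 23 such genes 21 were tested, 8 fell and 1 rose, with a median slope of −0.10 (−0.06 with the untreated library left out). The shares over all tested genes were 16.8% falls and 8.03% rises. Fastkd5, needed to process mitochondrial mRNAs that no tRNA borders, fell to 28.1% of untreated at 6 h (slope −0.30, edgeR adjusted p = 0.0222), and Rexo2, an exonuclease of short RNAs, rose to 144% (slope 0.09, adjusted p = 0.0496). Rexo2 lost the call under each of the 5 other scalings and without the 0, 2 or 4 h library. With the 4 h library left out 0 of these genes passed (10 had an unadjusted p under 0.05, against 3147 of all 10847).

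Of 25 genes that modify the mitochondrial rRNAs or assemble the mitochondrial ribosome, 6 fell and 1 rose, with a median slope of −0.06. Among all tested genes 16.8% fell and 8.03% rose. Dhx30, a helicase of ribosome assembly, fell to 56.7% (slope −0.14, edgeR adjusted p = 0.0151; adjusted p = 0.380 with total counts). Mrm3, which methylates a ribose of the large rRNA, fell to 23.1% (−0.37, adjusted p = 0.0449), resting on 377 and 35 counts. It missed the test with ribosomal protein scaling (adjusted p = 0.0508) and with the untreated library left out (slope −0.16, adjusted p = 0.149). Trmt61b, a methyltransferase of the mitochondrial RNAs, rose to 330% (0.27, adjusted p = 0.0264; 80, 194, 397 and 106 counts) and missed the test without the 6 h library (0.0676). With the 4 h library left out 0 genes of this list passed, beside the 342 falls and 22 rises among all genes. An unadjusted p under 0.05 was then found for 8 genes of the list, against 3147 of all 10847.

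Among 15 genes of RNA polymerase I and its factors 6 fell and 0 rose, with a median slope of −0.10 (−0.03 with the untreated library left out). Over all tested genes 16.8% fell and 8.03% rose. Cd3eap, a subunit of the enzyme, fell to 42.6% of untreated at 2 h and 21.3% at 4 h (1284, 777, 683 and 103 counts; slope −0.41, edgeR adjusted p = 0.0248), while Polr1a, the largest subunit, stood at 104%, 103% and 100% (adjusted p = 0.993). An unadjusted p under 0.05 was found for 9 of them, beside 5083 of all 10837 genes, and 2 fell with the 4 h library left out. Of 33 genes of cytosolic rRNA processing 12 fell and 0 rose. An unadjusted p under 0.05 was found for 18 of the 33, again beside 5083 of all 10837 genes. With DESeq2 14 of the 33 fell and 5 rose, beside 2162 falls and 1529 rises among all genes. The median slope of the 33 was −0.02, was −0.03 with the untreated library left out and turned to 0.0038 with total counts. Wdr43, a factor of the small subunit precursor, fell to 18.2% (6568, 5514, 4508 and 481 counts; slope −0.43, adjusted p = 0.0148), and the abundant nucleolin mRNA Ncl stood at 110%, 117% and 114% (adjusted p = 0.259). Lacking the 4 h library 5 of these genes fell, and lacking the 6 h library 13 fell and 7 rose. Among all genes 342 fell and 22 rose lacking 4 h, and 2339 fell and 1253 rose lacking 6 h. At 2 h Cd3eap stood at 42.6%, Wdr43 at 59.0%, Polr1a at 104% and Ncl at 110% of untreated, and the clone genes near 1%. A relation between these levels was not tested.

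Of 15 small RNAs of rRNA processing in the table, 6 were tested. Snora73b, which takes part in the processing of the small subunit rRNA, rose to 288% of untreated at 6 h (6088, 8492, 23145 and 7054 counts; slope 0.26, edgeR adjusted p = 0.0342) and was the only one to pass. It missed the test without the 4 h or the 6 h library (adjusted p = 0.0577 and 0.0634), or with ribosomal protein scaling or the deposited divisors (0.0819 and 0.0883). Rnu3a, the U3 RNA of precursor cleavage, stood at 48.5% of untreated at 4 h and 89.0% at 6 h (adjusted p = 0.676), and Rmrp, the RNA of RNase MRP, at 71.6%, 93.3% and 172% (adjusted p = 0.197). Without the untreated library all 6 rose, beside 717 of all 10838 genes. With all 4 libraries 8.03% of all tested genes rose.

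The half-lives in the authors' deposited table describe the same 4 libraries, so they are not separate evidence for the split. They are 0.473 h for RP23-81C12.1 and 0.439 h for RP23-81C12.3, with R2 of fit of 0.927 and 0.930, and they are the 2 shortest of the positive half-lives in that table. For mt-Rnr1 and mt-Rnr2 the authors' deposited table gives negative half-lives, −4.37 h (R2 0.949) and −3.85 h (R2 0.990), which describe a rise of the normalized values. Half-lives are given for 14957 genes in the authors' deposited table, of which 2188 are negative, and the median of all was 4.72 h. The normalized values in the authors' deposited table were 6352, 65.7, 40.9 and 38.2 for RP23-81C12.1, 973, 7.34, 4.18 and 16.8 for RP23-81C12.3, 96.8, 154, 170 and 449 for mt-Rnr1 and 395, 610, 782 and 2022 for mt-Rnr2. A single half-life does not describe the later steps of the clone genes on the TMM scale. These were −0.50 and −0.05 log2 for RP23-81C12.1 and −0.63 and 2.06 for RP23-81C12.3. The sources used here do not say how the fits were made.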

How the data were processed

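The 4 libraries from RAW264.7 cells were taken at 0, 2, 4 and 6 h. The authors deposited raw counts per gene. The submitters' processing notes name the mm10 build, the aligner STAR (2.5.3a) and, for counting, featureCounts and Subread (1.6.3). Not given in the sources used here are the gene annotation's release, whether strand was used and the handling of multiply matching reads. The deposited normalized signal was found to be the count over a whole number that is fixed within a library. The authors' half-life column was taken as a score and their R2 column as read from the file. Columns matched to no sample numbered 0.

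The members and gene lists were chosen with earlier results of these data known. Shares and ratios have exact binomial (Clopper-Pearson) 95% intervals. Falls and rises are slopes per h from edgeR 4.0.16 in R 4.3.3 (quasi-likelihood test, TMM factors from genes with a mean CPM of at least 1, 2 residual degrees of freedom, called at an adjusted p under 0.05). Changes of all genes used a prior of 0.5 on scaled counts. DESeq2 1.42.0, 5 other scalings, other filters and each library left out were tried. The slope test was run on simulated counts with straight courses and no library effect beyond the total. That run therefore does not measure the error of the test in these libraries.

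Named genes are the members, their flanking tRNAs, the 3 genes under the threshold, the 3 nearest courses per member, and of each of 7 lists the 3 most abundant members and the steepest fall and rise at a mean CPM of at least 5. Several list genes that the rule takes and that did not pass the test are not described, and the annotated rRNA genes with counts are given by their sum. The remaining mitochondrial mRNAs with counts were named besides. Sequences and positions are from GENCODE M21 (GRCm38, mm10), 1-based.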

Additional observations from a re-analysis of the deposited data

How the results depend on the processing

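No paired analysis was possible because each time had 1 library. The mitochondrial tRNA list gave no fit, since its genes are listed at 0. All 60 changes of the members under 5 other scalings kept their sign. This was bound to happen, since the scalings differ by less than each change on the TMM scale. At 6 h both clone genes (RP23-81C12.1 first), then mt-Rnr1 and mt-Rnr2, stood at −6.69, −5.17, 2.90 and 3.04 log2 with total counts, −6.94, −5.42, 2.65 and 2.79 with total counts lacking the members, −7.20, −5.68, 2.39 and 2.53 with ribosomal protein scaling and −7.38, −5.86, 2.21 and 2.36 with the deposited divisors. DESeq2 size factors gave −6.88 for RP23-81C12.1, 2.71 for mt-Rnr1 and 2.85 for mt-Rnr2. In the order given, the median gene shifted against TMM by 0.13, −0.09, −0.34, −0.53 and −0.02 log2 across 6 h. Counted without the 3 other members, the highest shares were 24.5%, 4.72%, 2.998% and 12.2%.

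With total counts 205 genes rose in all (870 with TMM), 1 mitochondrial mRNA rose, 5 mitochondrial RNA processing genes fell and 0 rose, 3 polymerase I and 4 cytosolic rRNA processing genes fell, and 2 small RNAs rose. With total counts lacking the members 316 genes rose in all and 0 mitochondrial RNA processing genes, of which 0 also rose with DESeq2 size factors and with the members left out before the fit. With ribosomal protein scaling 147 genes rose in all, 0 of them mitochondrial RNA processing genes or small RNAs, and 21 cytosolic rRNA processing genes fell. Among all 10837 genes 1318 fell with total counts and 2666 with ribosomal protein scaling. With the deposited divisors 4963 genes fell (1817 with TMM) and 72 rose, 13 mitochondrial RNA processing, 16 mitochondrial rRNA assembly, 12 polymerase I and 27 cytosolic rRNA processing genes fell, and 0 mitochondrial RNA processing genes and 0 small RNAs rose. Falls made up 67.6% of calls with TMM, 72.8% with DESeq2 size factors, 86.5% with total counts, 86.9% without the members, 94.8% with ribosomal protein scaling and 98.6% with the divisors. The DESeq2 test gave 1529 rises in all, 2 among mitochondrial mRNAs, 2 among mitochondrial RNA processing and 5 among cytosolic rRNA processing genes. With no filter 1 mitochondrial mRNA rose, beside 925 of all 18634 genes. At a mean CPM of at least 5 there were 2 rises among mitochondrial RNA processing genes, beside 905 of all 8995 genes.

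Leaving out each library in turn gave 342 to 2339 falls and 22 to 1253 rises in all, the lowest of both without the 4 h library. Falls and rises were 1 to 5 and 0 to 4 for mitochondrial mRNAs, 0 to 9 and 0 to 2 for mitochondrial RNA processing, 0 to 8 and 0 to 2 for mitochondrial rRNA assembly, 2 to 6 and 0 to 1 for polymerase I, 5 to 13 and 0 to 7 for cytosolic rRNA processing, and 0 to 1 and 0 to 6 for the small RNAs. Slopes that changed sign were those of Polr1a (0.020 with total counts, −0.015 to 0.012 on leaving out a library, with 0.0016 lacking 2 h and 0.012 lacking 6 h), Ncl (−0.023 with ribosomal protein scaling, −0.054 with the divisors), Rmrp (−0.024 lacking 6 h, up to 0.32), and Rnu3a (−0.26 to 0.10), mt-Nd2 (−0.43 to 0.094) and mt-Nd4 (−0.30 to 0.096), whose highest values lack the untreated library. The cause of these shifts was not tested.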
